A study of Mus musculus with 42 samples.

Results

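A set of 10 cell cycle genes was followed through the first cleavages of the mouse embryo: the cyclins Ccna2, Ccne1 and Ccne2, the cyclin-dependent kinases Cdk1 and Cdk2, the phosphatase Cdc25a, the inhibitory kinases Wee1 and Wee2, and the mitotic kinases Plk1 and Aurka. They were chosen by name, with earlier results of these data known. All were found among the 15737 genes with a unique symbol and complete values. RNA-seq had been made from ICR embryos in 9 groups, each described as 2 libraries of 3 embryos: early 2-cell embryos at 34 h after hCG, late 2-cell embryos at 48 h as control or with 0.01 µM FK866, 0.01 µM FK866 with 10 µM NMN, 10 nM TSA or Sirt1 knockdown, and 4-cell embryos at 58 h as control, with FK866, or with FK866 and NMN. FK866 inhibits NAMPT, which makes NMN in the salvage synthesis of NAD+, so that added NMN bypasses the block, and TSA (trichostatin A) inhibits histone deacetylases. All mothers had been superovulated with PMSG and hCG, and for the Sirt1 group zygotes received siRNA together with an antibody that Trim21, made from injected mRNA, turns against its bound protein. The study names DMSO as the control for the inhibitors, and injection of scrambled siRNA with Trim21 mRNA as the control for the knockdown. All late 2-cell treatments are compared here with the same control column, and its label does not say which of these it received. Vehicle or injection may thus differ between compared groups. Each library pools whole embryos with all their blastomeres. In such pools fewer cells of one kind and less RNA per cell cannot be told apart.

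Entry into mitosis is driven by CDK1 bound to a cyclin. WEE1 and its germline relative WEE2 hold CDK1 inactive by phosphorylating a tyrosine next to its ATP site, and phosphatases of the CDC25 family remove that phosphate, with PLK1 and Aurora A (Aurka) helping to tip the balance. CDK2 acts earlier, with cyclin E (Ccne1, Ccne2) at the start of DNA replication and with cyclin A (Ccna2) during it, and cyclin A also partners CDK1. The oocyte stores many of these transcripts, WEE2 keeps the mouse oocyte arrested in prophase, and the maternal RNA is removed as the 2-cell embryo turns on its own genome.

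Promoter sequences were looked up because many mitotic genes share a short promoter element, the cell cycle genes homology region (CHR), which is read by the MuvB complex. RefSeq promoters on GRCm38.p6, from 250 bases before the transcription start to 50 after it, were on hand for 7 of the 10 genes. TTTGAA, the CHR letters, was searched on both strands together with CCAAT, and the letters of the 2 motifs do not overlap in the windows shown. TTTGAA occurred in 3 of the 7 promoters, those of Cdk1, Plk1 and Aurka, and in 17.9% of all 32851 promoters of this length. CCAAT occurred in 6 of the 7, the exception being Ccne1, and in 37.4% of all. The 3 promoters with TTTGAA are printed because these genes are the ones whose levels are compared with each other later, and that of Wee2 because its level differed most between columns. Capitals mark TTTGAA and CCAAT or their reverse complements, and each line reads 5′ to 3′ on the strand of the gene. A further CCAAT of Wee2 spans its start and runs past the stretch printed. This RefSeq start of Wee2 lies inside the gene as annotated by GENCODE M21, which begins further upstream, at chr6:40439088.
Cdk1, bases -100 to -1 from the start, chr10:69352913-69353012, minus strand: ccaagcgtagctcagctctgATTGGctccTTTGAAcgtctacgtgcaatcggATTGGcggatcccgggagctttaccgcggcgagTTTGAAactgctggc
Plk1, bases -80 to -1, chr7:122159355-122159434, plus strand: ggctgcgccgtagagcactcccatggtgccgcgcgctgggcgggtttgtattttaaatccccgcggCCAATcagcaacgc
Plk1, bases 21 to 50, chr7:122159455-122159484, plus strand: cagcgccgcgTTTGAAttcggggaggagcg
Aurka, bases -80 to -1, chr2:172370571-172370650, minus strand: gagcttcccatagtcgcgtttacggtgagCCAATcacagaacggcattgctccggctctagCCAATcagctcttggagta
Aurka, bases 21 to 50, chr2:172370521-172370550, minus strand: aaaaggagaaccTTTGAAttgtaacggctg
Wee2, bases -170 to -1, chr6:40442693-40442862, plus strand: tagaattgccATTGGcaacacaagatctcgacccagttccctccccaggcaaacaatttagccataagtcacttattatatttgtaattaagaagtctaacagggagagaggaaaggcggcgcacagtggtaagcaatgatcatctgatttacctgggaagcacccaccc
In Cdk1 TTTGAA began 71 and 15 bases before the start (positions -71 and -15), and in Plk1 and Aurka it lay after the start, at 31 and 33.

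Levels are FPKM, fragments per kilobase of exon scaled to library size. The deposited table has 1 column per group, and whole read counts could be separated from it: 7 columns were the sum of 2 libraries and 2 columns held 1 library, so that 16 libraries of 3169677 to 10003481 reads were used. Within a column the library with more reads is called the larger and the other the smaller. Header and the study's own gene lists disagree on the group of 5 columns. The lists' values for 4-cell control, FK866 and FK866+NMN embryos equalled the columns headed late-2-cell-TSA, late-2-cell-Sirt1 and 4-cell-con for 84 of 84 genes each. The direction given in the lists for TSA was that of the column headed 4-cell-FK866 for 1180 of 1180 genes. For Sirt1 it was that of the column headed 4-cell-FK866-NMN for 756 of 804. Other columns shared many of these directions, at most 1073 for TSA (early 2-cell) and 686 for Sirt1 (late 2-cell FK866). Results are given by the lists and by the headers. The summed level of 10 markers of the 2-cell stage was 310 to 442 FPKM per library in the 5 columns that the lists place at the late 2-cell stage and 19.5 to 50.6 in the 3 they place at the 4-cell stage, and 5 oocyte markers summed to 1941 to 3558 and 44.6 to 215 FPKM. Early 2-cell embryos held 161 FPKM of the 2-cell and 1475 of the oocyte markers, both below late 2-cell controls. Sirt1 itself was at 86.6 and 66.2 FPKM in the late 2-cell control libraries, at 32.4 and 73.1 in the column headed late-2-cell-Sirt1, and at 11.3 in the column the lists give as Sirt1. It was also low in the column the lists give as TSA (7.61 FPKM) and in early 2-cell libraries (13.5 and 6.18). Its level thus does not tell the TSA and Sirt1 columns of the lists apart. Of 8 granulosa and 3 leukocyte markers, summed levels were 10.7 to 61.7 and 2.97 to 7.21 FPKM, with 3 to 7 of the 8 granulosa markers at 0 in each column. The granulosa sum was 58.0 to 61.7 FPKM in the columns that the lists place at the 4-cell stage. In the others it was 10.7 to 33.3 FPKM. The part of other cells in the results was not tested.

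**Figure D1:**
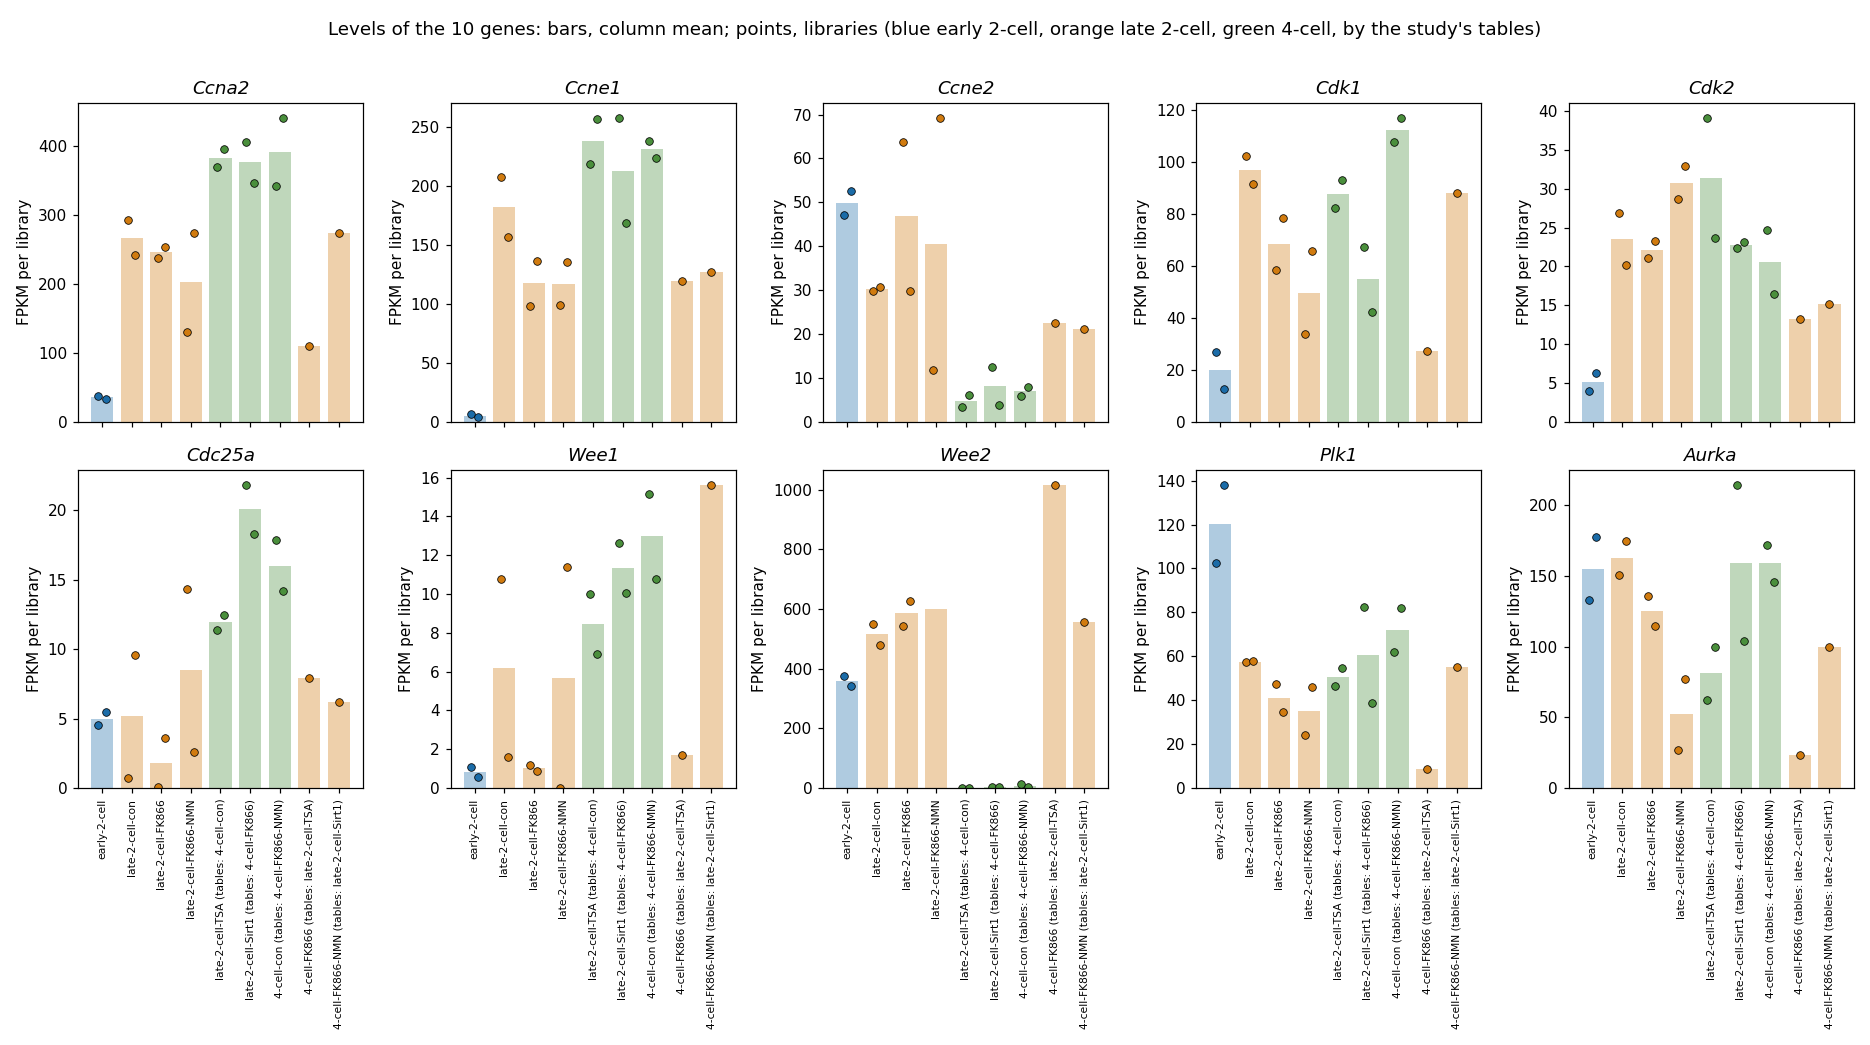
FPKM per library (y axis, from 0) of each of the 10 genes in the 9 columns (x axis, header with the group by the study's lists, or tables, in brackets). Bars are column means and points are libraries, coloured by stage. Wee2 stands at 358 FPKM or more in the 6 columns placed at the 2-cell stage and at 7.99 or less in the other 3, and the mean of Ccne1 is lowest, 4.97, in early 2-cell embryos.

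Ccna2 (ENSMUSG00000027715.9, chr3:36564865-36572150, minus strand, GENCODE M21 on GRCm38) encodes cyclin A2, the partner of CDK2 in S phase and of CDK1 in G2. Its level was 37.2 and 32.8 FPKM in the larger and smaller early 2-cell libraries, 292 and 242 in late 2-cell controls, 237 and 254 with FK866, and 130 and 274 with FK866+NMN. Early 2-cell libraries lay below all others, and the FK866+NMN libraries lay far apart. In the columns placed by the lists at the 4-cell stage it was 369 and 395 FPKM in controls (headed late-2-cell-TSA), 407 and 347 with FK866 (headed late-2-cell-Sirt1), and 341 and 440 with FK866+NMN (headed 4-cell-con). The single library headed 4-cell-FK866, TSA by the lists, was at 110 FPKM, and that headed 4-cell-FK866-NMN, Sirt1 by the lists, at 273. The TSA library was thus below every library but the early 2-cell pair.

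Ccne1 (ENSMUSG00000002068.16, chr7:38097984-38107534, minus strand) encodes cyclin E1, which drives entry into S phase with CDK2. It was at 6.13 and 3.80 FPKM in early 2-cell embryos, 207 and 157 in late 2-cell controls, 98.4 and 136 with FK866, and 98.5 and 135 with FK866+NMN. Both control libraries lay above the 4 libraries with FK866. It was at 219 and 257 FPKM in the columns of 4-cell controls by the lists, 257 and 169 with FK866, 238 and 224 with FK866+NMN, 119 in the TSA and 127 in the Sirt1 library. The 4-cell pairs by the lists overlapped.

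Ccne2 (ENSMUSG00000028212.16, chr4:11191351-11204779, plus strand) encodes cyclin E2, which overlaps in function with cyclin E1. Early 2-cell libraries held 47.2 and 52.6 FPKM, late 2-cell controls 29.8 and 30.8, FK866 libraries 63.8 and 29.8, and FK866+NMN libraries 11.8 and 69.2. Both early libraries lay above both late controls, the reverse of Ccne1, and the treated pairs enclosed the controls. By the lists it was at 3.30 and 6.14 FPKM in 4-cell controls, 12.4 and 3.70 with FK866, 5.80 and 7.95 with FK866+NMN, 22.4 in the TSA and 21.0 in the Sirt1 library. The 3 columns placed at the 4-cell stage held the lowest means.

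Cdk1 (ENSMUSG00000019942.13, chr10:69335146-69352938, minus strand) encodes the kinase of mitotic entry. Its levels were 27.0 and 12.7 FPKM in early 2-cell embryos, 102 and 91.6 in late 2-cell controls, 58.4 and 78.3 with FK866, and 33.6 and 65.8 with FK866+NMN. Control libraries lay above both treated pairs at the late 2-cell stage. By the lists it was at 82.4 and 93.0 FPKM in 4-cell controls, 67.2 and 42.4 with FK866, 108 and 117 with FK866+NMN, 27.3 in the TSA and 88.1 in the Sirt1 library. FK866 libraries were below, and FK866+NMN libraries above, both 4-cell controls.

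Cdk2 (ENSMUSG00000025358.16, chr10:128697939-128705031, minus strand), the S phase kinase, was at 3.91 and 6.23 FPKM in early 2-cell embryos, 26.9 and 20.1 in late 2-cell controls, 21.1 and 23.2 with FK866, and 28.6 and 32.9 with FK866+NMN. By the lists 4-cell controls held 39.1 and 23.7 FPKM, FK866 libraries 22.3 and 23.2, FK866+NMN libraries 24.8 and 16.5, and the TSA and Sirt1 libraries 13.2 and 15.2. Early 2-cell libraries were the lowest, and the later column means ran from 13.2 to 31.4 FPKM.

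Cdc25a (ENSMUSG00000032477.14, chr9:109875579-109893895, plus strand) encodes a phosphatase that activates CDK2 and CDK1. It was at 4.51 and 5.50 FPKM in early 2-cell embryos, 0.707 and 9.61 in late 2-cell controls, 0.0556 and 3.62 with FK866, and 14.3 and 2.61 with FK866+NMN. The low value with FK866 is 4 reads, and in each late 2-cell pair one library held several times the level of the other. Those of the columns placed at the 4-cell stage lay close together, at 11.4 and 12.4 FPKM in controls, 21.8 and 18.3 with FK866, and 17.8 and 14.2 with FK866+NMN. The TSA and Sirt1 libraries by the lists held 7.91 and 6.23 FPKM.

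Wee1 (ENSMUSG00000031016.9, chr7:110122046-110143286, plus strand) encodes the somatic kinase that inhibits CDK1. It was at 1.09 and 0.567 FPKM in early 2-cell embryos, 10.8 and 1.62 in late 2-cell controls, and 1.17 and 0.863 with FK866. With FK866+NMN it was at 0 and 11.4 FPKM, from 0 and 208 reads. The control and the FK866+NMN pairs each spanned most of the range seen at this stage. By the lists 4-cell controls held 10.0 and 6.90 FPKM, FK866 libraries 12.6 and 10.1, FK866+NMN libraries 15.2 and 10.8, the TSA library 1.69 and the Sirt1 library 15.6. The 6 libraries placed at the 4-cell stage did not overlap with early 2-cell or late 2-cell FK866 libraries.

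Wee2 (ENSMUSG00000037159.11, chr6:40439088-40466813, plus strand) encodes the oocyte kinase of the same family. Early 2-cell libraries held 374 and 342 FPKM, late 2-cell controls 551 and 480, and FK866 libraries 544 and 627. The FK866+NMN column held 601 FPKM per library on average, but 3 splits into whole reads gave the same sum, 425 and 778, 614 and 589, or 803 and 400 FPKM, so no library value or test is given for it. By the lists the 4-cell controls held 0.232 and 0.0976 FPKM, from 5 and 2 reads, the FK866 libraries 3.44 and 2.41 from 108 and 24 reads, and the FK866+NMN libraries 12.7 and 3.29 from 218 and 48 reads. The TSA library held 1016 FPKM and the Sirt1 library 555. No separated library fell between 12.7 and 342 FPKM. The 3 columns with little Wee2 were the same that held little of the 2-cell and oocyte markers.

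Plk1 (ENSMUSG00000030867.7, chr7:122159439-122169873, plus strand) encodes Polo-like kinase 1, which activates CDC25 and marks WEE1 for destruction. It was at 102 and 138 FPKM in early 2-cell embryos, 57.5 and 57.7 in late 2-cell controls, 47.2 and 34.7 with FK866, and 24.1 and 46.2 with FK866+NMN. All treated libraries of this stage lay below both controls. By the lists it was at 46.6 and 54.8 FPKM in 4-cell controls, 82.6 and 38.6 with FK866, and 61.8 and 81.9 with FK866+NMN. The Sirt1 library held 55.3 FPKM, near the controls, and the TSA library 8.45 from 87 reads, below all others.

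Aurka (ENSMUSG00000027496.15, chr2:172356190-172370535, minus strand) encodes Aurora A, which activates PLK1 and builds spindle poles. It was at 133 and 177 FPKM in early 2-cell embryos, 151 and 175 in late 2-cell controls, 136 and 115 with FK866, and 27.2 and 77.0 with FK866+NMN. Controls lay above FK866 libraries, and these above FK866+NMN libraries. By the lists 4-cell controls held 62.6 and 100.0 FPKM, FK866 libraries 215 and 104, FK866+NMN libraries 172 and 146, the Sirt1 library 100.0 and the TSA library 23.4. The TSA library was the lowest of the 16 for Aurka too.

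Differences between columns were tested with limma on log2(FPKM per library + 1) over all 16 libraries, with Benjamini-Hochberg adjustment over all genes tested, and a gene is called at an adjusted p under 0.05. The study calls its replicates biological. Whether they came from separate matings or cultures is not given in the sources used here, and p-values measure only the spread between these libraries. Counts past 2-fold compare column means plus 1 FPKM and carry no test.

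From the early to the late 2-cell stage, which asks what changes as the embryo turns on its genome and nears its second cleavage, both cyclin-dependent kinases and 2 of the 3 cyclins rose. Ccne1 rose most, by 4.95 ± 0.34 (SE) on the log2 scale (adjusted p = 5.42e-05), from a mean of 4.97 to 182 FPKM. Ccna2 rose by 2.89 ± 0.33 (adjusted p = 0.000464), Cdk1 by 2.32 ± 0.44 (adjusted p = 0.00658) and Cdk2 by 2.03 ± 0.39 (adjusted p = 0.00728). In each of these 4 genes both late libraries lay above both early ones. The opposing kinases and phosphatases were not called: Wee2 differed by 0.52 ± 0.49, Wee1 by 1.62 ± 1.06 and Cdc25a by -0.49 ± 0.99. Plk1 was lower in both late libraries (-1.03 ± 0.44, adjusted p = 0.158), Ccne2 likewise (-0.70 ± 0.79, adjusted p = 0.633), and Aurka differed by 0.08 ± 0.50. Thus 4 of 10 genes were called, all upward, against 15.1% of the 11654 genes tested, and 6 were past 2-fold against 49.4%. Their median difference was 1.07, and that of all genes 0.00. Centring libraries on the median expressed gene moved all differences of this comparison by -0.70. The 4 rises stayed called, Plk1 was then called lower (-1.73, adjusted p = 0.0175), and the signs of Wee2 (-0.18) and Aurka (-0.62) turned. The upward share of all calls was 51.0% without and 20.8% with centring. In a fit on these 2 columns alone the calls of Cdk1 (adjusted p = 0.0826) and Cdk2 (adjusted p = 0.0660) were lost.

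**Figure D2:**
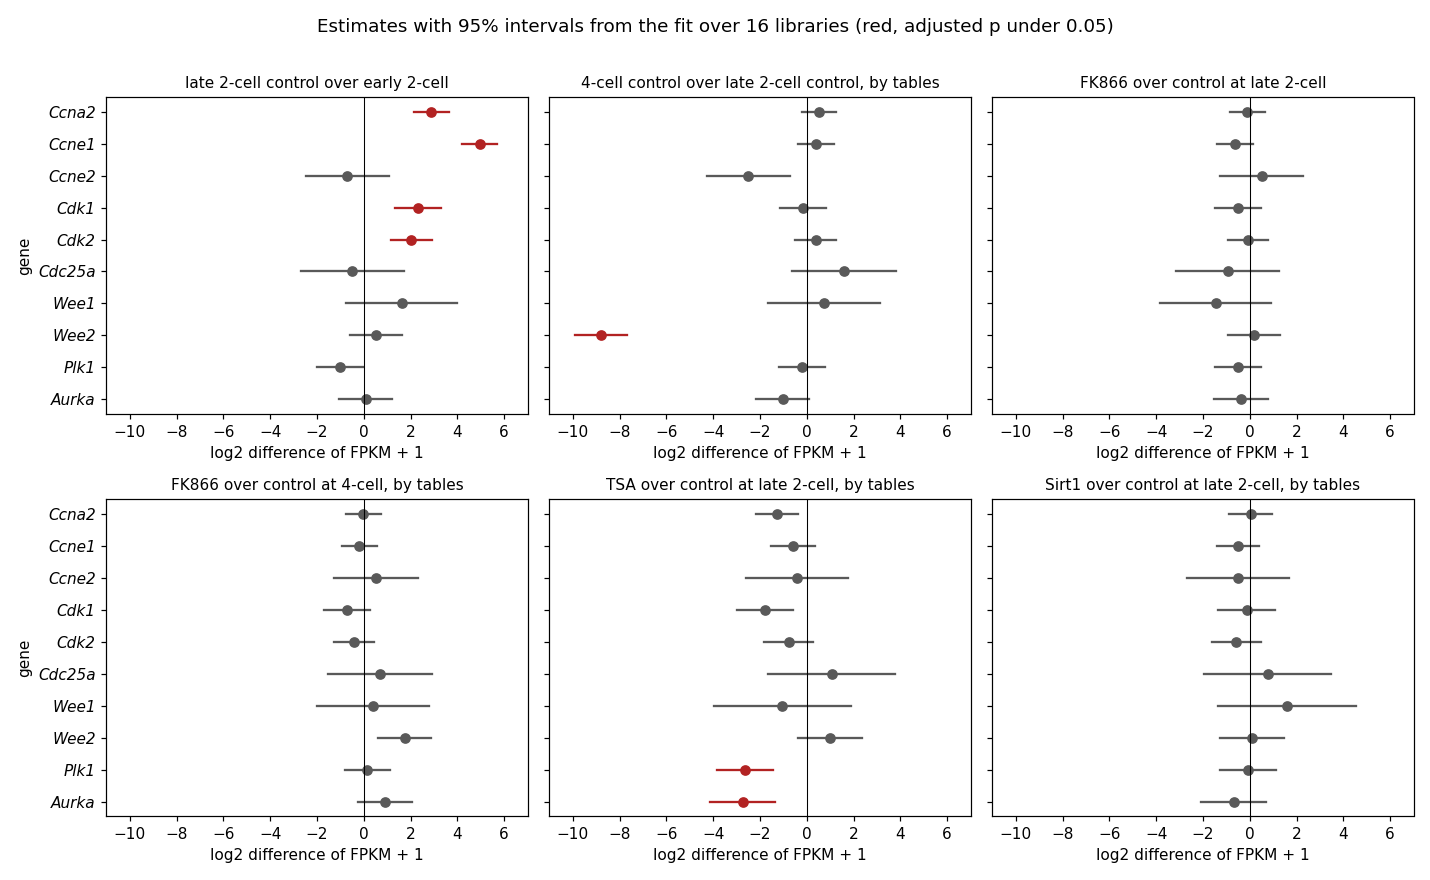
Estimated log2 differences of FPKM + 1 (x axis) with 95% intervals from the fit over 16 libraries for each gene (y axis) in 6 comparisons, with calls in red. Ccna2, Ccne1, Cdk1 and Cdk2 lie above 0 from early to late 2-cell, Wee2 at -8.79 from late 2-cell to 4-cell, and the estimates of Plk1 and Aurka lie below -2 with TSA.

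From the late 2-cell to the 4-cell stage in controls, by the lists, the 1 called gene of the 10 was Wee2. It fell by 8.79 ± 0.49 on the log2 scale (adjusted p = 0.000107), from a mean of 515 FPKM to 5 and 2 reads in its 2 libraries. The size of this difference depends on the 1 FPKM added before the log, and was -10.97 with 0.1 FPKM and -6.65 with 5 FPKM. Ccne2 was lower by a difference of -2.50 ± 0.79 in both libraries and missed the threshold (adjusted p = 0.0776), as did Aurka (-1.03 ± 0.51, adjusted p = 0.263). The genes that had risen before were not called, with differences of 0.52 ± 0.33 for Ccna2, 0.39 ± 0.33 for Ccne1, -0.14 ± 0.44 for Cdk1 and 0.37 ± 0.38 for Cdk2. Their 95% intervals ran from -0.22 to 1.27, -0.36 to 1.14, -1.13 to 0.84 and -0.49 to 1.23. One of 10 was called, against 11.5% of 11748 genes, and 3 were past 2-fold against 45.4%. With the headers, where this contrast reads as TSA over control at the late 2-cell stage and the 4-cell control is the column headed 4-cell-con, Wee2 was again the 1 call of the 4-cell comparison, at -6.07 ± 0.49 (adjusted p = 0.00163), against 7.26% of genes. Centring moved the upward share of all calls from 31.7 to 48.0% by the lists and from 36.0 to 51.0% by the headers. Past 2-fold there were 3 genes, against 41.8%. Oocyte markers were lower in the same columns, at a summed 2383 FPKM in late 2-cell controls against 44.6 and 213. In the fit on the 2 columns alone the call by the headers was lost (adjusted p = 0.0927).

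FK866 against control at the late 2-cell stage asks what the block in NAD+ synthesis changes, and headers and lists name the same columns for it. None of the 10 genes was called by limma, and none had an unadjusted p under 0.05, beside 927 of 11736 genes. The share of all genes called was 0.528%, or 62 of 11736, and this count was 290 to 368 with 1 library left out and 0 in the fit on these columns alone. The difference was -0.11 ± 0.33 for Ccna2, -0.51 ± 0.44 for Cdk1, -0.63 ± 0.34 for Ccne1 and -0.50 ± 0.44 for Plk1. Ccne1, Cdk1, Plk1 and Aurka were lower in both FK866 libraries than in either control, and the 95% interval of Ccne1 ran from -1.39 to 0.12. Wee1 and Cdc25a were the 2 genes past 2-fold, against 28.2% of all genes, both lower with FK866, at -1.46 ± 1.06 and -0.95 ± 0.99. Their control libraries differed from each other by more than that. Wee2 differed by 0.18 ± 0.49, with an interval from -0.94 to 1.31. The median over the 10 genes was -0.44, and that over all genes 0.00.

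Adding NMN to FK866 at the late 2-cell stage was compared over the 9 genes whose libraries could be separated. None was called by limma, against 2.17% of all genes. An unadjusted p under 0.05 was found for 1 of the 9, beside 1566 of 11726 genes. The 1 of the 9 was Aurka, at -1.42 ± 0.50 (adjusted p = 0.221), a mean of 52.1 FPKM with NMN and 125 without. Past 2-fold were 3 of the 10, Aurka lower and Cdc25a and Wee1 higher, against 36.7% of genes. Ccne1 was at 117 FPKM in both columns, and the interval of its difference ran from -0.75 to 0.75. Against the late 2-cell control, again none of the 9 was called by limma, against 3.67% of genes (17.6% of these calls upward, 30.8% with centring). Unadjusted p was under 0.05 for 2 of the 9, beside 1915 of 11732 genes. The 2 were Aurka (-1.80 ± 0.50, adjusted p = 0.0912) and Cdk1 (-1.03 ± 0.44, adjusted p = 0.276). Aurka alone was past 2-fold, against 40.4% of genes. With the smaller FK866+NMN library left out, so that the column rests on 1 library, Aurka was called lower against FK866 (-2.16, adjusted p = 0.0234) and against control (-2.53, adjusted p = 0.0111), and Ccna2 against control (-1.02, adjusted p = 0.0310).

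FK866 at the 4-cell stage gave different results by the 2 assignments. By the lists none of the 10 genes was called by limma, and 14 of 11754 genes, or 0.119%, were called. An unadjusted p under 0.05 was found for 1 of the 10, beside 703 of all genes. With 1 library left out 79 to 143 genes were called. That 1 gene was Wee2, whose level of 2.92 FPKM with FK866 and 0.165 in controls gave a difference of 1.74 ± 0.49 (adjusted p = 0.409), the 1 gene past 2-fold against 20.9% of all. Cdk1 differed by -0.70 ± 0.43 and Aurka by 0.91 ± 0.51. Ccna2 was at -0.02 ± 0.33 with an interval from -0.77 to 0.72. By the headers, with the column headed 4-cell-FK866 as the treated one, 5 of the 10 were called against 20.7% of genes, and 7 were past 2-fold against 57%. Wee2 was called higher (7.05 ± 0.60, adjusted p = 0.000154). Called lower were Plk1 (-2.93 ± 0.54, adjusted p = 0.00504), Aurka (-2.71 ± 0.62, adjusted p = 0.0139), and Ccna2 (-1.81 ± 0.41, adjusted p = 0.0129). Cdk1, also called, fell by 2.00 ± 0.54 on the log2 scale (adjusted p = 0.0271). By the lists the treated column is late 2-cell TSA, and its control, headed 4-cell-con, is 4-cell FK866+NMN. The compared columns thus differ by the lists in stage, and the control is itself treated with FK866. The treated column is 1 library of 4682639 reads, which was taken to vary like the others. The calls of Ccna2, Cdk1 and Aurka were lost when 1 control library was left out, with an adjusted p of 0.0618 for Ccna2 without the smaller, 0.0705 and 0.0913 for Cdk1 without the larger and the smaller, and 0.0595 for Aurka without the larger. In the fit on these columns alone all 5 calls were lost, with an adjusted p of 0.0501 for Cdk1 to 0.127 for Wee2.

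NMN with FK866 against FK866 at the 4-cell stage, by the lists, gave no call by limma among the 10 genes and calls in 0.153% of all genes. Unadjusted p was under 0.05 for 1 of the 10, beside 431 of 11747 genes. The 1 gene was Cdk1, at 112 FPKM with NMN and 54.8 without (1.06 ± 0.44). Cdk1 and Wee2 were past 2-fold upward, against 16.6% of genes. Wee2 was called (1.81, adjusted p = 0.0467) when the smaller FK866+NMN library was left out. By the headers both columns hold 1 library each, so the spread comes wholly from the other columns and the differences have no replicate check. The lists give these columns as Sirt1 knockdown and TSA at the late 2-cell stage. Plk1, at 8.45 and 55.3 FPKM, was the 1 gene past the threshold on that assumption (2.57 ± 0.62, adjusted p = 0.0374), against 6.8% of genes. Past 2-fold were 5 genes, all upward, against 43.5%: Plk1, Aurka, Cdk1, Ccna2 and Wee1.

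TSA against control at the late 2-cell stage asks what happens when histone deacetylation is blocked. By the lists the TSA group is the single library headed 4-cell-FK866, taken to vary like the others, and the 2 mitotic kinases were lower in it. Aurka was at 23.4 FPKM against 163 in controls (-2.74 ± 0.62, adjusted p = 0.0232), and Plk1 at 8.45 against 57.6 FPKM (-2.63 ± 0.54, adjusted p = 0.0145). Cdk1 (-1.79 ± 0.54, adjusted p = 0.0759) and Ccna2 (-1.27 ± 0.41, adjusted p = 0.0964) were lower and not called. Ccne1 (-0.59 ± 0.41) and Cdk2 (-0.78 ± 0.47) were nearer to the control, and Wee2 was at 1016 against 515 FPKM (0.98 ± 0.60, adjusted p = 0.435). Called were 2 of 10 genes, against 8.62% of 11746, and past 2-fold 5, all lower, against 45.9%. The median of the 10 was -0.91. Upward calls were 69.5% of all calls, and 79.5% with centring. The call of Aurka was lost without the larger control library (adjusted p = 0.0649) and without the smaller (adjusted p = 0.0773), and both calls in the fit on these columns alone (adjusted p = 0.0612 for Plk1 and 0.0802 for Aurka). This library also held Sirt1 at 7.61 FPKM, against 86.6 and 66.2 in controls.

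Sirt1 knockdown against control, by the lists, gave no call among the 10 genes. None was called by limma, against 1.11% of all genes, and none had an unadjusted p under 0.05, beside 1015 of 11759 genes. The intervals of the differences ran from -0.87 to 0.95 for Ccna2, -1.34 to 1.07 for Cdk1, -1.26 to 1.14 for Plk1 and -1.26 to 1.48 for Wee2. Wee1 was the 1 gene past 2-fold, against 31.2%, at 15.6 against 6.19 FPKM (1.58 ± 1.31, adjusted p = 0.917), with control libraries at 10.8 and 1.62. By the headers, Wee2 was called, at 2.92 against 515 FPKM (-7.05 ± 0.49, adjusted p = 0.000596), with 8.9% of genes called (34.7% of them upward, 53.0% with centring). Past 2-fold were 3 genes against 43.5%. The lists give the column headed late-2-cell-Sirt1 as 4-cell FK866, with equal values for 84 of 84 genes. By them this comparison is between stages and holds no knockdown. In this column the knockdown target was at 32.4 and 73.1 FPKM. The Wee2 call was lost in the fit on these columns alone (adjusted p = 0.102).

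**Figure D3:**
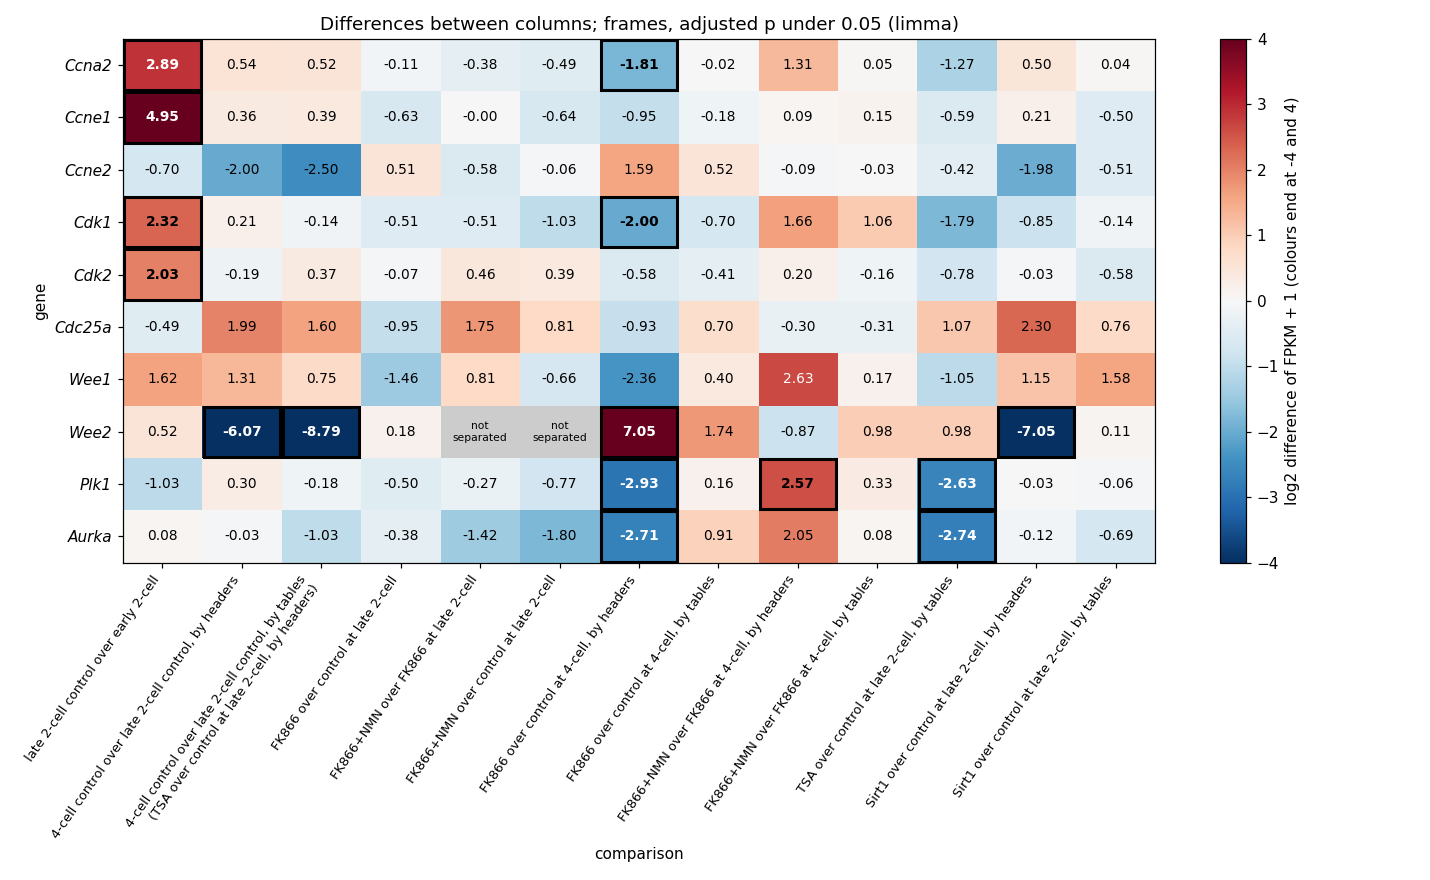
Log2 differences of FPKM + 1 of the 10 genes (rows) in 13 comparisons (columns), written in each cell and coloured from -4 to 4, with frames at an adjusted p under 0.05 by limma. Frames gather in the early to late 2-cell comparison, in the row of Wee2, and where the library headed 4-cell-FK866 takes part.

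The comparisons share columns, so their values are not independent. The late 2-cell control enters both stage comparisons and the late 2-cell treatments, and the library headed 4-cell-FK866 is both FK866 at the 4-cell stage by the headers and TSA by the lists. Its levels of Plk1, Aurka, Cdk1 and Wee2 are the same whichever name it carries.

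In order of level per length, early 2-cell embryos held Wee2 (358 FPKM), Aurka (155), Plk1 (120), Ccne2 (49.9), Ccna2 (35.0), Cdk1 (19.8), Cdk2 (5.07), Cdc25a (5.01), Ccne1 (4.97) and Wee1 (0.828). Libraries of Aurka and Plk1 overlapped, as did those of Cdk2, Cdc25a and Ccne1. In late 2-cell controls the order was Wee2 (515 FPKM), Ccna2 (267), Ccne1 (182), Aurka (163), Cdk1 (97.0), Plk1 (57.6), Ccne2 (30.3), Cdk2 (23.5), Wee1 (6.19) and Cdc25a (5.16), with overlap of Ccne1 with Aurka and of Wee1 with Cdc25a. Ccne1 thus went from ninth place to the third. In 4-cell controls by the lists Ccna2 (382 FPKM) and Ccne1 (238) led, Cdk1 (87.7) and Aurka (81.3) overlapped, and Wee2 (0.165) was last.

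Across the 9 column means of log2(FPKM + 1), Ccna2 ran with Ccne1 (Pearson's r = 0.93), Cdk1 (0.89) and Cdk2 (0.87), Plk1 with Aurka (0.90), and Ccne2 with Wee2 (0.90), while r was -0.01 for Plk1 and Ccna2. These are descriptions over 9 points that share stage, libraries and read depth. The single library headed 4-cell-FK866 was lowest in both Plk1 (8.45 FPKM) and Aurka (23.4 FPKM), and r of this pair without it was not computed. Cdk1, whose promoter holds TTTGAA like those of Plk1 and Aurka, had r of 0.22 with Plk1 and 0.39 with Aurka. Of 7878 genes that reached 5 FPKM per library in any column, the 2 most like each gene were Gm12184 and Cdk2ap1 for Ccna2 (r = 1.00 and 1.00), Ddx20 and Rps12-ps4 for Ccne1 (0.98 and 0.98), Foxo1 and Spopl for Ccne2 (0.99 and 0.99), Gm13167 and Gm13237 for Cdk1 (0.98 and 0.98), and Rbsn and Fgf4 for Cdk2 (0.94 and 0.94). They were Fcgrt and Scnm1 for Cdc25a (0.97 and 0.93), Rrs1 and Agpat5 for Wee1 (0.94 and 0.91), AY512915 and Gm48158 for Wee2 (0.99 and 0.99), Cops8 and Ift52 for Plk1 (0.98 and 0.97), and Dna2 and Tpx2 for Aurka (0.95 and 0.94). Tpx2 encodes the activator of Aurora A. Like Aurka, it was lowest in the single library headed 4-cell-FK866 (3.56 FPKM), and a link between them was not tested. An r above 0.95 was reached by 222 genes for Wee2 and 102 for Ccna2, and by none for Cdk2, Wee1 and Aurka.

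**Figure D4:**
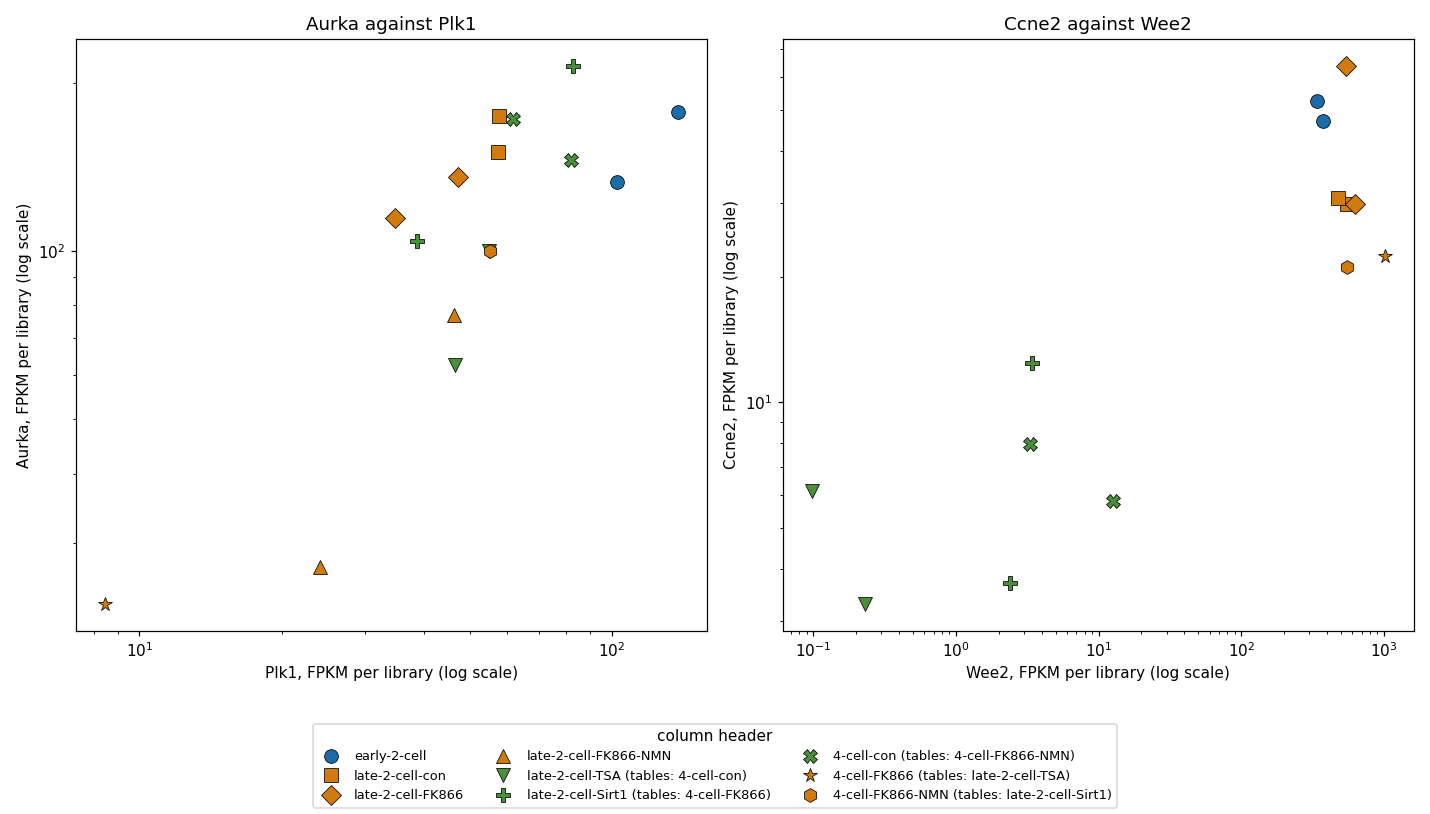
FPKM per library on log axes for Aurka against Plk1 (left, 16 libraries) and Ccne2 against Wee2 (right, the 14 libraries where Wee2 was separated), with a symbol per column and colours by stage. The library headed 4-cell-FK866 is lowest in both Plk1 (8.45) and Aurka (23.4), and the right panel falls into 2 groups split by Wee2.

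Other genes of the same machinery were taken from 7 lists of 96 genes, of which 63 were tested. From the early to the late 2-cell stage 8 rose and 1 fell, 14.3% of the 63 beside 15.1% of all genes. Among those that rose were Chek2, a DNA damage checkpoint kinase (from 0.954 to 58.8 FPKM, adjusted p = 5.58e-05), Ube2c and Ube2s, the ubiquitin-conjugating enzymes of the anaphase-promoting complex (1.65 ± 0.26 and 2.02 ± 0.36 on the log2 scale, adjusted p = 0.00224 and 0.00519), Nek2, a centrosome kinase (2.06 ± 0.45, adjusted p = 0.0136), Cdca8, a subunit of the chromosomal passenger complex (1.28 ± 0.34, adjusted p = 0.0331), and E2f1, a transcription factor of S phase genes (1.69 ± 0.48, adjusted p = 0.0406). Cdc25b, the phosphatase needed to resume meiosis in the oocyte, fell by 3.43 (SE 0.66, adjusted p = 0.00709), from 62.1 to 5.05 FPKM. Dbf4, the activator of CDC7, and Rbl2, a pocket protein, made up the rest of the 8 (adjusted p = 0.0265 and 0.00804).

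From late 2-cell to 4-cell controls by the lists 3 rose and 7 fell of the 63, or 15.9% beside 11.5% of all genes. Cdk4, the kinase of D cyclins, rose from 6.39 to 76.4 FPKM (3.51 ± 0.76, adjusted p = 0.0171), and Anapc7, a subunit of the anaphase-promoting complex, rose from 25.0 to 135 FPKM (adjusted p = 0.0122). Cdkn2c, an inhibitor of CDK4 and CDK6, fell from 14.1 FPKM and was listed at 0 (adjusted p = 0.00226). Cul1, the scaffold of SCF ligases, fell from 226 to 69.4 FPKM (adjusted p = 0.00471), Ube2s from 136 to 30.0 (adjusted p = 0.00557), E2f4 from 155 to 23.4 (adjusted p = 0.0249) and Cks1b, a small CDK partner, from 347 to 107 (adjusted p = 0.0338). By the headers 0 rose and 6 fell, or 9.52% beside 7.26% of all genes, among them Cul1, Ube2s, E2f4 and Cdkn2c again.

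With FK866 none of the 63 was called by limma at the late 2-cell stage or, by the lists, at the 4-cell stage. Only 0.528% and 0.119% of all genes were called there, so that the lack of calls among 63 genes says little. Unadjusted p was under 0.05 for 8 and 3 of the 63, beside 927 of 11736 and 703 of 11754 genes. Medians were -0.08 and -0.05 beside 0.00 over all genes. FK866+NMN against FK866 at the late 2-cell stage had 2 that fell, or 3.17% beside 2.17% of all genes, Cdkn2c (5.26 to 0.0220 FPKM) and the germline cyclin Ccna1 (5.77 FPKM to a listed 0). These genes were near 0 in most columns, where the shared spread is small and a call less safe, as were Rbl2 and Ccnd2. In the next comparison the treated column, headed 4-cell-FK866, is late 2-cell TSA by the lists. Its control, headed 4-cell-con, is 4-cell FK866+NMN by the lists. By the headers at the 4-cell stage, against a single library, 6 were called higher and 12 lower, or 28.6% beside 20.7% of all genes, with a median over the 63 of 0.29. Lower were Cdc20, which activates the anaphase-promoting complex (275 to 22.2 FPKM, adjusted p = 0.000889), Nek2 (166 to 28.6, adjusted p = 0.0122) and Tpx2 (32.7 to 3.56, adjusted p = 0.0410). Higher were Mastl, the Greatwall kinase of mitosis (5.74 to 36.0 FPKM, adjusted p = 0.0473), the CDK inhibitor Cdkn1c (2.94 to 91.5, adjusted p = 0.0237), E2f4 (28.8 to 204.8, adjusted p = 0.0188) and the D-type cyclin Ccnd2 (0.184 to 5.65, adjusted p = 0.00107). With TSA by the lists, which uses the same library, 1 was called higher and 4 lower, or 7.94% beside 8.62% of all genes. Cdc20 was at 22.2 against 106 FPKM (adjusted p = 0.0177), and Ccnd2 at 5.65 FPKM against a listed 0 (adjusted p = 0.000888). With Sirt1 knockdown by the lists none of the 63 was called by limma, beside 1.11% of all genes. Unadjusted p was under 0.05 for 6 of the 63, beside 1015 of 11759 genes.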

How the data were processed

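RNA-seq libraries of 9 groups of mouse embryos were used, and chromatin profiles (24 CUT&Tag samples) were left out. The authors deposited FPKM, 1 column per group, made with Trim Galore, HISAT2 (genome mm10) and featureCounts. FPKM times the exon length (GENCODE M21, GRCm38) falls on whole reads of 1 or 2 library totals, so reads and FPKM of each library were recovered, with 97.0 to 97.8% of values above 0 separated uniquely within the rounding of 10 digits. Of 15737 genes 15356 had an exon length. limma 3.58.1 (R 4.3.3) was fitted to log2(FPKM + 1) of all 16 libraries with 1 mean per column, for genes that reached 1 FPKM per library in any column. This shares 1 spread per gene over all columns, which is small for genes near 0 in most of them, and a column of 1 library adds none. Ccna2, Ccne2, Cdk2, Wee1 and Plk1 overlap a gene of the other strand, and the strand setting of the counting is not given in the sources used here, so such reads cannot be told apart. The steps were tested on simulated data for FK866 over control at the late 2-cell stage. False calls there made up a larger share of all calls than the threshold is meant to allow. They came mostly from genes near 0 in some columns and were rare among genes expressed in every column. Wee2, near 0 in the column headed late-2-cell-TSA, is not among the genes expressed in every column. The 10 genes and the lists were chosen with earlier results of these data known. Named genes are the 10, from each list and comparison up to 3 called genes of largest change, the 2 most alike genes per member, and Sirt1 as a target (Nampt, the other target in the rule, is not analysed here). Alternatives were pseudocounts of 0.1 and 5, no filter, a minimum of 5 FPKM, centring, the 2 columns alone, nearest-equal splits, and leaving out each library. Python 3.11.15 and pandas 2.3.3 were used.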

Additional observations from a re-analysis of the deposited data

Results flagged for a closer look

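By the headers, the Wee2 difference between the FK866 and control columns was not the same at both stages. It was 7.05 ± 0.60 on the log2 scale at the 4-cell stage and 0.18 ± 0.49 at the late 2-cell stage, and the difference of both effects, tested as an interaction with limma, was 6.87 ± 0.78 (adjusted p = 0.00135). Over 13 alternatives it ran from 6.03 to 7.70, with an adjusted p of 8.41e-05 to 0.0299. By the lists the same difference was 1.56 ± 0.70 (adjusted p = 0.688). The column headed 4-cell-FK866 is late 2-cell TSA by the lists, whose TSA directions it matched for 1180 of 1180 genes. The lists' 4-cell FK866 values equalled this column for 0 of 84 genes. The difference by the headers thus rests on a column that the study's own lists do not give as FK866. Its control, the column headed 4-cell-con, equalled the lists' 4-cell FK866+NMN values for 84 of 84 genes. The 4-cell FK866 column by the headers is 1 library, so that the arm with the large difference has no replicate and its spread is taken from the other columns. It held 2-cell stage markers at a summed 310 FPKM per library, beside 50.6 in the column headed 4-cell-con and 420 and 442 in the late 2-cell FK866 and control columns.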

How the results depend on the processing

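Of 132 counts of called genes under the alternatives, with columns that carry 2 names counted once, 120 stayed within 1.5 times the value reported. Counts of 0 that stayed at 0 are among the 120, and for these the ratio has no meaning. The share is therefore no measure of how stable the calls are. In the fit on the 2 compared columns alone the count went from 4 to 2 for late over early 2-cell, from 1 to 0 for 4-cell over late 2-cell control by the headers, from 5 to 0 for FK866 at the 4-cell stage by the headers, from 2 to 0 for TSA by the lists, and from 1 to 0 for Sirt1 by the headers. That fit estimates the spread from 1 to 2 degrees of freedom per gene, and could not be run for FK866+NMN over FK866 at the 4-cell stage by the headers, where both columns hold 1 library. Leaving out 1 library gave 0 to 1 for FK866+NMN over FK866 and 0 to 2 for FK866+NMN over control at the late 2-cell stage, 3 to 3 for FK866 at the 4-cell stage by the headers, 0 to 1 for FK866+NMN over FK866 at the 4-cell stage by the lists, and 1 to 1 for TSA by the lists. Of 16 called differences of single genes, 11 lost the call under at least 1 alternative, and none changed sign while called.

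Centring on the median moved differences of the 10 genes by 0.28 and 0.39 for 4-cell over late 2-cell control by the headers and the lists, 0.13 for FK866, 0.21 and 0.34 for FK866+NMN over FK866 and over control at the late 2-cell stage, 0.33 for TSA by the lists, 0.36 for Sirt1 by the headers and -0.23 for FK866+NMN over FK866 at the 4-cell stage by the headers. The upward share of all calls went from 36.0 to 51.0% and from 31.7 to 48.0% in the first 2 of these, from 17.6 to 30.8% for FK866+NMN over control, from 69.5 to 79.5% for TSA by the lists, and from 34.7 to 53.0% for Sirt1 by the headers. No paired analysis was possible because the separated libraries carry no replicate number. Depth limits the lowest values: the smallest counts above 0 were 2 reads for Wee2, 4 for Cdc25a and 9 for Wee1.

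Counts of calls over all genes, the background of each comparison, moved more. With 1 library left out they went from 852 to between 363 and 812 and from 1356 to between 745 and 1275 for 4-cell over late 2-cell control by the headers and the lists, from 254 to 497 to 1205 and from 431 to 520 to 1461 for FK866+NMN over FK866 and over control at the late 2-cell stage, from 2425 to 1567 to 1848 for FK866 at the 4-cell stage by the headers, from 18 to 107 to 149 for FK866+NMN over FK866 at the 4-cell stage by the lists, and from 1045 to 645 to 978 and from 130 to 324 to 372 for Sirt1 by the headers and the lists. On the compared columns alone the late over early 2-cell count of 1757 was 686, the 1356 were 19, and TSA and Sirt1 by the lists gave 967 and 327.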
